A study of Mus musculus with 4 samples.

Results

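The loci of 8 genes that encode transcription factors known to induce the epithelial-mesenchymal transition (EMT) were examined for accessible chromatin: Snai1, Snai2, Zeb1, Zeb2, Twist1, Twist2, Prrx1 and Foxc2. Each locus was taken as the gene body plus 50 kb upstream of the transcription start site (TSS) in the mouse genome build mm10, with genes from the GENCODE annotation, and every FAIRE-positive region in that window was kept. FAIRE-seq sequences DNA that is recovered from fixed and sonicated chromatin because little protein is crosslinked to it, and a FAIRE-positive region is a stretch where such DNA piles up above the local background. The 8 windows held 16 regions, of 35796 in the whole data set after the peaks of all libraries had been merged wherever they overlapped. These 16 fell at 7 of the 8 loci, since Twist1 held none.

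The libraries came from EpRas cells, a mouse mammary gland epithelial cell line that expresses active H-Ras, so every group carries the oncogene. Cells of all groups were transfected with siRNA and harvested at day 4. The 4 groups, with 1 library each, were control siRNA without TGF-β (called untreated here), control siRNA with TGF-β3 at 1 ng/ml (siControl + TGF-β), and the same TGF-β treatment with either of 2 sets of siRNAs against both Etv4 and Etv5, which encode ETS family transcription factors (siEtv4/5 set 1 and set 2). The comparisons ask where chromatin at these loci opened or closed with TGF-β, and how this looked when Etv4 and Etv5 were targeted. No group had a second peak list, so no spread between replicates is known and no p-value is given.

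EMT is the conversion of polarized epithelial cells into motile, mesenchymal cells, and TGF-β is one of its best known inducers. The Snai and Zeb proteins are zinc finger repressors that bind E2-box sequences, among them those in the promoter of the E-cadherin gene Cdh1. Twist1 and Twist2 are basic helix-loop-helix proteins, Prrx1 is a homeobox protein of mesenchymal cells, and Foxc2 is a forkhead protein that acts in mesenchymal and vascular development. TGF-β acts on several of these genes through Smad proteins, which often bind beside AP-1 dimers of the Fos and Jun families. FAIRE-seq reads how accessible these genes are and not their transcripts.

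The sequences of some of the regions are shown first, from the Snai1 promoter to introns and upstream DNA. For each locus the region with the most fragments at its summit that overlapped no annotated untranslated region was taken, and the strongest region called in siControl + TGF-β alone was added. The Foxc2 region with the most fragments, at -7.8 kb, overlapped an untranslated region and is not shown. Zeb1 is not shown. Each is the plus strand of mm10 over the summit of its strongest peak and the 100 bases on either side, named by its distance from the TSS, with matches to 5 short motifs in capitals. The motifs, searched on both strands, were AP-1 (TGAGTCA or TGACTCA), ETS (CCGGAAG or CAGGAAG), RUNX (TGTGGT), the E2-box (CAGGTG) and TEAD (GGAATG). No match in the 16 regions overlapped a match of another motif.
Snai1 -0.1 kb (chr2:167537977-167538177): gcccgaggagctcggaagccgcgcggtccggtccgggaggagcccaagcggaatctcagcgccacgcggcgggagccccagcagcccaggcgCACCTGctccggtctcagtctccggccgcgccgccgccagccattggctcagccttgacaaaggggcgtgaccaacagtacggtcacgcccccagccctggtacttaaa
Snai2 -4.3 kb (chr16:14701433-14701633): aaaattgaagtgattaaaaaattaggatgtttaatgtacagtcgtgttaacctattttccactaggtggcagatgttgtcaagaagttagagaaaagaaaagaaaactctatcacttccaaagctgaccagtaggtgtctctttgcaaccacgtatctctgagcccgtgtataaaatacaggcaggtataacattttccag
Zeb2 +97.6 kb (chr2:45019660-45019860): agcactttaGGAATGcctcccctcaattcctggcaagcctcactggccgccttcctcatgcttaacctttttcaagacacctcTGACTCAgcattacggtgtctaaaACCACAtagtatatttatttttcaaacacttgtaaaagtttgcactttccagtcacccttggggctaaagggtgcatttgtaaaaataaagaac
Twist2 +15.3 kb (chr1:91816763-91816963): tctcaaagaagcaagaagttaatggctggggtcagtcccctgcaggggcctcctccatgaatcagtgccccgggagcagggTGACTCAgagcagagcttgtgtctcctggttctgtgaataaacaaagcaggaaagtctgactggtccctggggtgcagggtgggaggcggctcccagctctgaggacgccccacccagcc
Prrx1 +21.5 kb (chr1:163292080-163292280): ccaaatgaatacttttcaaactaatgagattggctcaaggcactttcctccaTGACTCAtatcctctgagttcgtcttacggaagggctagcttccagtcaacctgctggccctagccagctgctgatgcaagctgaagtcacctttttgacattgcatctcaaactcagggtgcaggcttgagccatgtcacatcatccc
Foxc2 -2.7 kb (chr8:121113358-121113558): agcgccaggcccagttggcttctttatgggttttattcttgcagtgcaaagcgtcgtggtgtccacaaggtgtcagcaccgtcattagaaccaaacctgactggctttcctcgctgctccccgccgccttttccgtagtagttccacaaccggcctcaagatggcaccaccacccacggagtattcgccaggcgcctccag
Foxc2 -8.4 kb (chr8:121107729-121107929): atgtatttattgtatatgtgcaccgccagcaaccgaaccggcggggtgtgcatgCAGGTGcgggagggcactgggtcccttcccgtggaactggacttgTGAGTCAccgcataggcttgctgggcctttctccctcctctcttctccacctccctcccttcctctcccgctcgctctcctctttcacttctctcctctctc

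The Snai1 promoter sequence is rich in CG pairs and holds an E2-box, the site of the Snai and Zeb proteins themselves, with its centre 5.5 bp from the summit. The Twist2, Prrx1 and Zeb2 sequences lie inside introns, and each holds an AP-1 word and no E2-box. The Zeb2 intron also holds a RUNX and a TEAD word. No motif was matched at the Snai2 -4.3 kb and the Foxc2 -2.7 kb regions. In the Foxc2 -8.4 kb sequence the AP-1 word lies 2 bp from the summit.

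The estimated depth was 15.3 to 20.7 M reads per library, and the numbers of peaks were 22247 in untreated cells, 28754 in siControl + TGF-β, 22516 with set 1 and 14925 with set 2. Set 2 was thus the deepest library and had the shortest list and the lowest median fold enrichment, 7.15 against 8.44 in siControl + TGF-β, which touches every comparison with set 2 described here. Its part in those results was not tested. Strength is given as the fold enrichment over the surrounding DNA deposited by the authors, and as the count of fragments under the summit, which was worked back from the deposited values. Of 8 marker genes of mammary epithelium, the promoter was called for 5, 3, 4 and 3 in the order untreated, siControl + TGF-β, set 1 and set 2, and of 7 markers of blood, endothelium and fibroblasts for 1, 1, 0 and 1. Over all protein-coding genes the promoter was called at 36, 38, 34.1 and 27.2%. Anywhere in the window, 6 of the mammary markers held a region in each library, and 5, 6, 5 and 3 of the other markers did. The shares of all protein-coding genes were 65.2, 68.3, 64.2 and 55.2%. Krt8 and Krt14 held a promoter region in every library, Krt18 in all but set 2, and Krt5 and Trp63 in none. The promoter of Epcam was called in untreated cells alone, that of Cdh1 in untreated cells and with set 2, and that of Elf5 with set 1 alone.

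The untreated library called 11 of the 16 regions, siControl + TGF-β called 14, and set 1 and set 2 called 10 each. With every list shortened to its 14925 most significant peaks the numbers were 11, 10, 7 and 10 in the same order, so siControl + TGF-β no longer had the most. All 4 libraries shared 7 regions, or 43.8%, against 29.6% of the 35796 regions. Of the remaining 9, 2 were called in 3 libraries, 4 in 2 and 3 in a single one. By position, 3 of the 16 lay at a promoter (middle within 2 kb of a TSS of the member), 5 in an intron and 8 upstream, and none had its middle in another exon. Per library, promoter regions numbered 2, 2, 1 and 2, intronic regions 4, 5, 5 and 4, and upstream regions 5, 7, 4 and 4, in the order untreated, siControl + TGF-β, set 1 and set 2. The density of regions was below that of all genes in 3 libraries and near it with set 2. The loci held 1.30, 1.66, 1.18 and 1.18 regions per 100 kb of window in that order, against 1.66, 2.00, 1.62 and 1.13 over the windows of 21938 protein-coding genes.

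**Figure D1:**
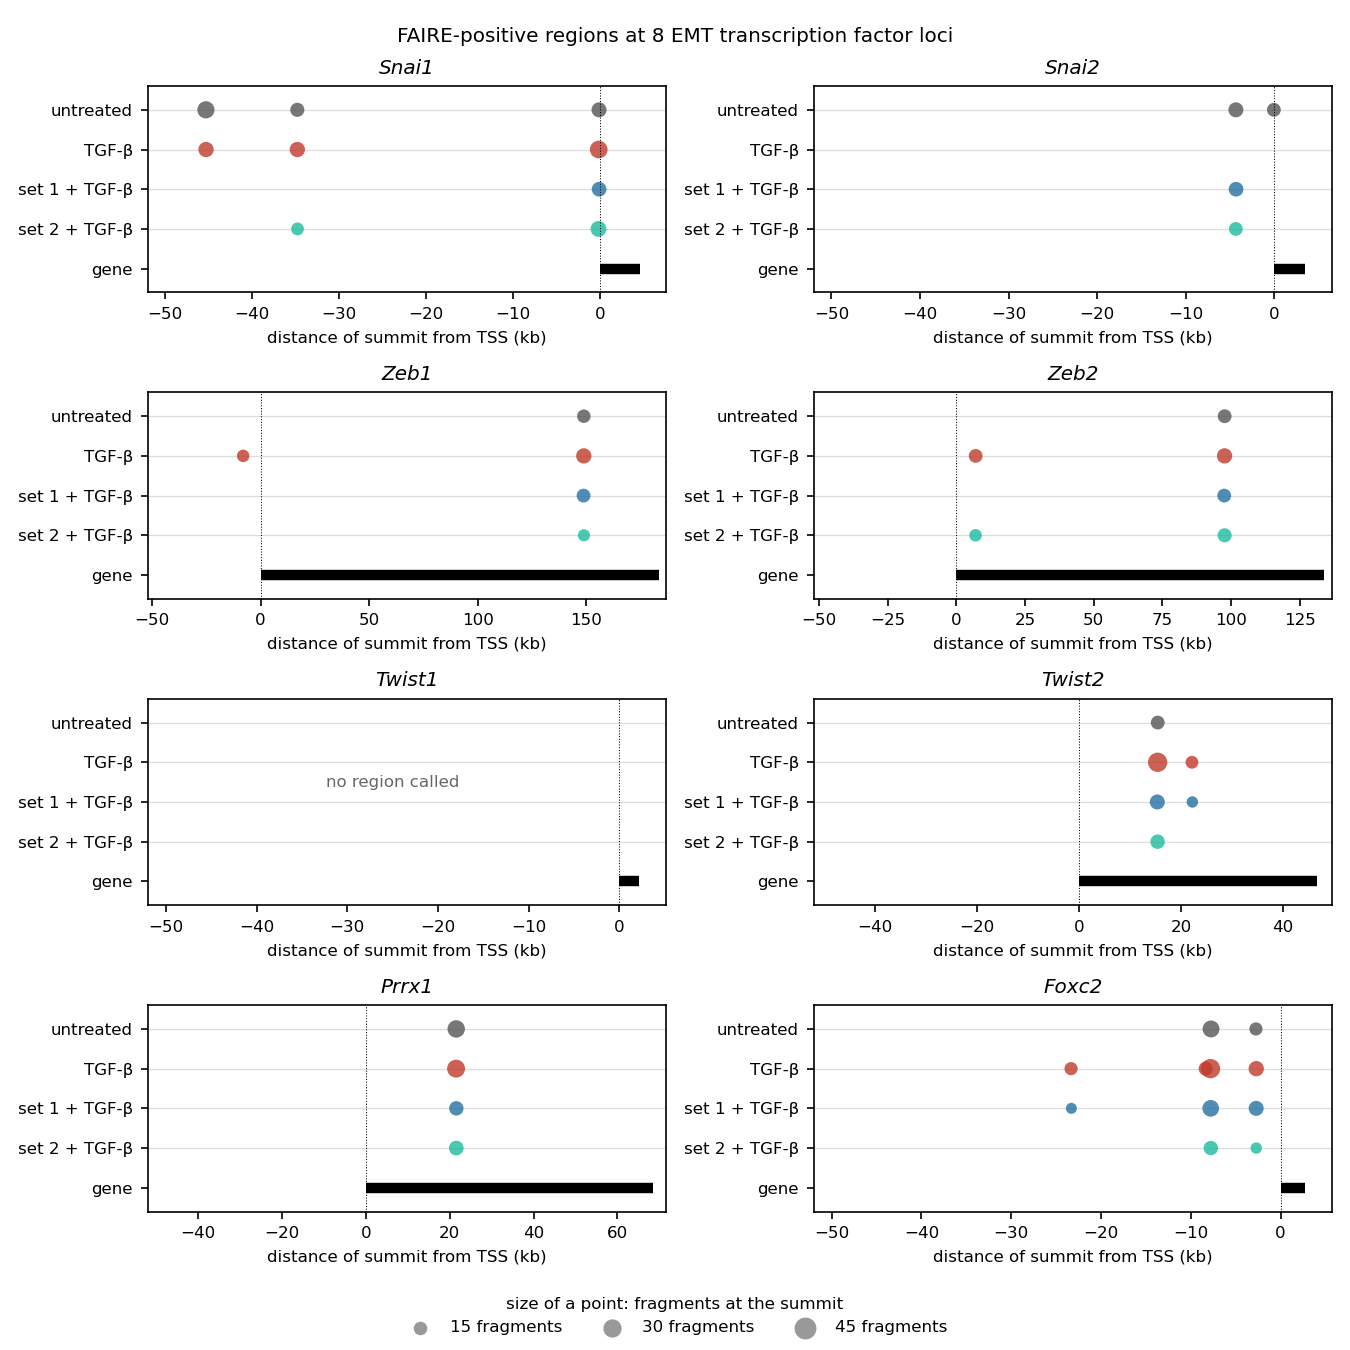
FAIRE-positive regions at the 8 loci, 1 panel per gene, with the distance of each summit from the TSS in kb on the x axis (negative is upstream, the black bar is the gene) and the library on the y axis; the area of a point follows the number of fragments at the summit. Snai1 and Foxc2 carry their regions upstream or at the start of the gene, Twist2, Prrx1 and the far regions of Zeb1 and Zeb2 lie inside the gene, and Twist1 has none.

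Regions were found at 7, 6, 7 and 7 of the 8 loci in the 4 libraries, in the same order, where 65.2, 68.3, 64.2 and 55.2% of all protein-coding genes had one. The exception in siControl + TGF-β was Snai2, beside Twist1. Promoters were called at 2, 2, 1 and 2 members, against 36, 38, 34.1 and 27.2% of all protein-coding genes. No library had a region within 2 kb of an annotated start of Zeb1, Twist1, Twist2, Prrx1 or Foxc2. At these genes accessible DNA, where it was seen, lay kilobases away from the start.

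Among the zinc finger repressors, Snai1 was the member with an open promoter throughout. The region at chr2:167537937-167538212, whose middle lay 121 bp upstream of the single annotated TSS, had a fold enrichment of 10.2 in untreated cells, 11.9 in siControl + TGF-β, 9.72 with set 1 and 8.82 with set 2. There were 26, 36, 25 and 29 fragments at the summit in that order. It was highest in siControl + TGF-β, where it had more fragments than 89.3% of the peaks of that library. Scaled to the estimated depth, this was 1.70 fragments per M reads (FPM) in untreated cells with a 95% Poisson interval of 1.11 to 2.49, 2.21 (1.55 to 3.06) in siControl + TGF-β, 1.45 (0.936 to 2.14) with set 1 and 1.40 (0.940 to 2.02) with set 2. The 4 intervals overlap, and like all such intervals here they cover counting error only.

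Both upstream regions of the Snai1 window lie at the starts of neighbouring genes. The region at -45.3 kb is 17 bp from a TSS of Spata2, and that at -34.8 kb is 317 bp from a TSS of Rnf114. At -45.3 kb the fold enrichment was 12.8 in untreated cells, with 34 fragments, and 9.52 in siControl + TGF-β, with 27 fragments, and neither siRNA library called it, where about 14 fragments would have been needed for a call. This was the highest fold enrichment of any of the 16 regions in untreated cells. At -34.8 kb the values were 9.86 in untreated cells, 9.78 in siControl + TGF-β and 6.50 with set 2, with 23, 27 and 19 fragments, and set 1 had no call. The number of fragments needed was computed here from the local background of the libraries that called the region, scaled to the depth of the one that did not, and from the weakest p-value in its list.

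Snai2, a close relative of Snai1, had both of its regions in untreated cells and neither in siControl + TGF-β. Its promoter region, at chr16:14705733-14705867 and 52 bp upstream of the TSS, was called in untreated cells alone, with a fold enrichment of 7.04 and 22 fragments. In the other libraries a call would have needed 15 fragments in siControl + TGF-β, 15 with set 1 and 16 with set 2. A second Snai2 region, 4.3 kb upstream at chr16:14701452-14701619, had a fold enrichment of 8.47 in untreated cells, 8.10 with set 1 and 7.45 with set 2, with 26, 25 and 22 fragments. It was missing from siControl + TGF-β, where 14 fragments would have been enough. It was the only one of the 16 regions that both siRNA libraries called and siControl + TGF-β did not. How many of all regions had this pattern was not computed, so it is no result about Snai2. The summits of the -4.3 kb region in the 3 libraries lay within 22 bp of each other. The siControl + TGF-β library, the one with the longest list, therefore had no region in the Snai2 window, and its nearest summit was 87.0 kb downstream of the TSS. The 200 bases in front of the Snai2 start are shown because they are the only promoter sequence among the members called without TGF-β and not with it, and they hold none of the 5 motifs.
Snai2 -0.1 kb (chr16:14705652-14705851): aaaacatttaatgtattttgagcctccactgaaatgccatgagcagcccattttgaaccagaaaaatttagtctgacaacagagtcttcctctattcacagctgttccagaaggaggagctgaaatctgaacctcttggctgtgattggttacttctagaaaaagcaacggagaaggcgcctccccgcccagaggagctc

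Zeb1 had its strongest region deep in the gene, at chr18:5740396-5740735 in intron 2 of the 7 introns of the annotated transcript, 148.7 kb from the start. All 4 libraries called it, with a fold enrichment of 8.55 in untreated cells, 8.80 in siControl + TGF-β, 7.38 with set 1 and 5.76 with set 2. Fragments numbered 21, 27, 22 and 17. Its level with set 2, 0.823 FPM (0.479 to 1.32), was the lowest of the 4, and the interval of siControl + TGF-β, 1.09 to 2.41 around 1.66 FPM, overlapped it. The summits were spread over 186 bp, the widest spread among the 16 regions. A second Zeb1 region, 8.1 kb upstream, was called in siControl + TGF-β alone, with a fold enrichment of 8.81 on 18 fragments. There the local background was at the genome-wide floor of the library, and by the same computation 10, 11 and 11 fragments would have reached the weakest p-value in the lists of untreated cells, set 1 and set 2.

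Zeb2 has 8 annotated starts, and its promoter region belongs to an internal one. The region at chr2:45110351-45110496 lies 7.0 kb inside the gene as counted from the outermost start, 92 bp from the TSS at position 45110515, in the first exon of the transcript that starts there, and 0.284 kb from the start of the antisense gene Zeb2os. It was called in siControl + TGF-β, with a fold enrichment of 9.60 and 22 fragments, and with set 2, with 6.67 and 18 fragments. Untreated cells and set 1, where 11 and 12 fragments would have been needed, had no call. The second Zeb2 region, at chr2:45019532-45020012 in intron 3 of 9 of that transcript, was called in all 4 libraries with some of the lowest values among the shared regions. Its fold enrichment was 6.93 in untreated cells, 7.85 in siControl + TGF-β, 6.46 with set 1 and 6.49 with set 2, with 22, 27, 22 and 23 fragments.

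Of the basic helix-loop-helix genes, Twist1 held no region between 50 kb upstream and its end in any library. The nearest summit lay 83.5 kb downstream of its TSS in untreated cells, 82.2 kb in siControl + TGF-β, 82.6 kb with set 1, and at -528 kb with set 2. Where the local background is at its floor, the weakest summits in the lists held 10 fragments in untreated cells, 11 in siControl + TGF-β and with set 1, and 12 with set 2, so weaker accessibility at Twist1 was not detectable at this depth. The RefSeq promoter of Twist1 has a ratio of observed to expected CpG of 0.827, higher than 81.3% of 32851 RefSeq promoters.

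Twist2 gave the highest fold enrichment of all 16 regions. The region at chr1:91816486-91817035, 15.3 kb from the start, in the only intron of its longer transcript, had a value of 8.63 in untreated cells, 13.38 in siControl + TGF-β, 10.5 with set 1 and 7.78 with set 2. There were 22, 43, 26 and 24 fragments at its summit, so that the siControl + TGF-β library stood above the other three. In FPM this was 1.44 (0.902 to 2.18) in untreated cells, 2.64 (1.91 to 3.56) in siControl + TGF-β, 1.505 (0.983 to 2.20) with set 1 and 1.16 (0.744 to 1.73) with set 2. The intervals of siControl + TGF-β and set 2 do not overlap, while those of siControl + TGF-β overlap with untreated cells and with set 1. A weaker region in the same intron, 22.2 kb from the start, was called in siControl + TGF-β, with a fold enrichment of 7.66 on 19 fragments, and with set 1, with 6.43 on 15 fragments.

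Prrx1 had a single region, at chr1:163291990-163292342 in the first intron, 21.5 kb from the start, and it was called in every library. The fold enrichment was 8.70 in untreated cells, 9.39 in siControl + TGF-β, 7.08 with set 1 and 7.25 with set 2, with 35, 37, 24 and 25 fragments. In FPM it was 2.29 (1.60 to 3.18) and 2.27 (1.60 to 3.13) in the control siRNA libraries, and 1.39 (0.890 to 2.07) and 1.21 (0.783 to 1.79) with set 1 and set 2. Both siRNA libraries were lower than both control siRNA libraries, although the intervals overlap. Untreated cells and siControl + TGF-β hardly differed here, and with 35 fragments it was the summit with the most fragments among the regions of untreated cells.

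Foxc2 had most regions, 4, all upstream and none within 2 kb of its TSS. The strongest, at chr8:121108260-121108515, lies 7.8 kb upstream of Foxc2 and 5 bp from a TSS of the neighbouring gene Mthfsd, so it is a promoter of that gene as well. Its fold enrichment was 10.7 in untreated cells, 12.7 in siControl + TGF-β, 10.1 with set 1 and 7.81 with set 2, on 33, 43, 32 and 24 fragments. As at Twist2, the FPM interval of siControl + TGF-β (1.91 to 3.56) did not overlap that of set 2 (0.744 to 1.73). The region nearest to Foxc2, at chr8:121113360-121113612 and 2.7 kb upstream of the TSS, had a fold enrichment of 7.52 in untreated cells, 9.52 in siControl + TGF-β, 8.97 with set 1 and 5.79 with set 2, on 20, 27, 26 and 15 fragments. Its summits lay within 36 bp of each other in the 4 libraries. Of the other two, the region 8.4 kb upstream, 498 bp from an Mthfsd TSS, was called in siControl + TGF-β alone, with 7.36 on 23 fragments. The region 23.3 kb upstream, inside Mthfsd, was called in siControl + TGF-β, with 8.91 on 20 fragments, and with set 1, with 6.70 on 14 fragments.

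**Figure D2:**
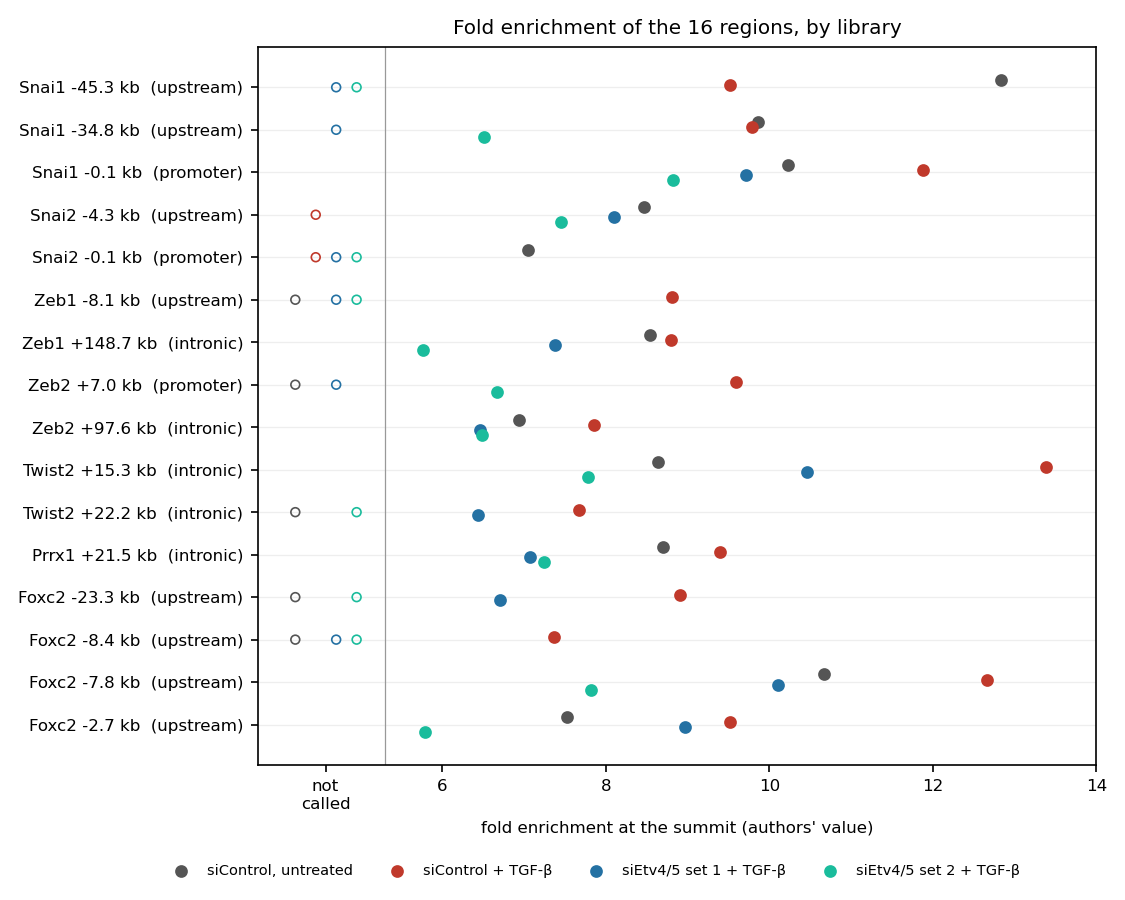
Fold enrichment at the summit (x axis, the authors' ratio of signal to local background) of each of the 16 regions (y axis) in the 4 libraries; open circles on the left mark libraries without a call. At the 7 regions called in all 4 libraries siControl + TGF-β has the highest value, as it has in the median over all peaks. The libraries without a call are spread over 9 regions.

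The comparison of siControl + TGF-β with untreated cells asked which of these regions opened with TGF-β. Of the 16 regions, 5 were called with TGF-β only, where 32.3% of the 32759 regions called in either library were, and 2 were called in untreated cells only, against 12.5%. The 5 were at Zeb1 (-8.1 kb), Zeb2 (7.0 kb), Twist2 (22.2 kb) and Foxc2 (-23.3 and -8.4 kb), and their summits held 18 to 23 fragments. The 2 in the other direction were the promoter and the -4.3 kb region of Snai2. These shares are close to those of all regions and are no result about the members as a group. When every list was shortened to its 14925 most significant peaks, 1 of the 5 was still called with TGF-β only, the Zeb2 promoter region, and the other four were in no list, while both Snai2 regions were still called in untreated cells and not in siControl + TGF-β. Of all regions at this length, 25.6% were called with TGF-β only and 25.6% in untreated cells only.

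At the 9 regions called in both of these libraries the fold enrichment was higher with TGF-β at 7 and lower at 2. Of all 18082 regions called in both, 11828 were higher and 6254, or 34.6%, lower. The median log2 ratio was 0.18, against 0.12 over all 18082 regions called in both. The range ran from -0.43 at the Snai1 -45.3 kb region to 0.63 at the Twist2 15.3 kb region. Twist2 was the only member past 1.5-fold, at 1.55-fold, a size reached upward by 5.92% of all regions and downward, where no member reached it, by 0.924%. By FPM, a count added after seeing the data here and for the siRNA libraries, it was again the only one past 1.5-fold upward, against 10.6% of all regions. The Snai1 promoter had a ratio of 1.16, Foxc2 -7.8 kb of 1.19, Foxc2 -2.7 kb of 1.27, Zeb2 97.6 kb of 1.13 and Zeb1 148.7 kb of 1.03. No member had FPM intervals that did not overlap in this comparison, as for 0.166% of all regions in the upward direction.

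In the comparisons of the siRNA libraries the siControl + TGF-β library is again one side, so all 3 comparisons share it and their ratios are given side by side only. With set 1, 5 of the 15 regions called in either library were called in siControl + TGF-β only, against 30.1% of all regions, and 1 was called with set 1 only, against 10.7%. The 5 were Snai1 (-45.3 and -34.8 kb), Zeb1 (-8.1 kb), Zeb2 (7.0 kb) and Foxc2 (-8.4 kb), and the 1 was Snai2 (-4.3 kb). All 9 regions called in both had a lower fold enrichment with set 1, where 71.5% of the 19023 regions called in both were lower. The median log2 ratio was -0.29, against -0.16 over all regions. None of the 9 passed 1.5-fold in fold enrichment, which 6.6% of all regions did downward and 0.557% upward. By FPM 4 of the 9 were at least 1.5-fold lower, the Snai1 promoter, Twist2 15.3 kb, Prrx1 and Foxc2 -23.3 kb, against 15.1% of all regions. None had separate FPM intervals, as 0.347% of all regions did downward.

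With set 2, 5 of 15 regions were again called in siControl + TGF-β only, against 50.9% of all regions, and Snai2 (-4.3 kb) was again called with siRNA only, against 5.04%. The 5 were Snai1 (-45.3 kb), Zeb1 (-8.1 kb), Twist2 (22.2 kb) and Foxc2 (-23.3 and -8.4 kb), and with lists of equal length Snai1 (-45.3 kb) was the 1 that was left, against 25.1% of all regions. All 9 regions called in both were lower with set 2, as were 89.4% of the 13318 regions called in both, and the median log2 ratio was -0.59 against -0.38. At least 1.5-fold lower were 5 of the 9, where 24.2% of all regions were, and none was 1.5-fold higher, against 0.0901%. They were the Twist2 15.3 kb, Foxc2 -2.7 kb, Foxc2 -7.8 kb, Zeb1 148.7 kb and Snai1 -34.8 kb regions, with ratios of 0.581, 0.609, 0.617, 0.654 and 0.665. By FPM 8 of the 9 were at least 1.5-fold lower, all but Zeb2 97.6 kb, against 59.4% of all regions. In fold enrichment, too, the smallest shift was at the Zeb2 intron, with a ratio of 0.826. By FPM the intervals did not overlap at 2 regions, Twist2 15.3 kb and Foxc2 -7.8 kb, both lower with set 2, and at 9.7% of all regions in this direction and 0.00751% in the other.

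**Figure D3:**
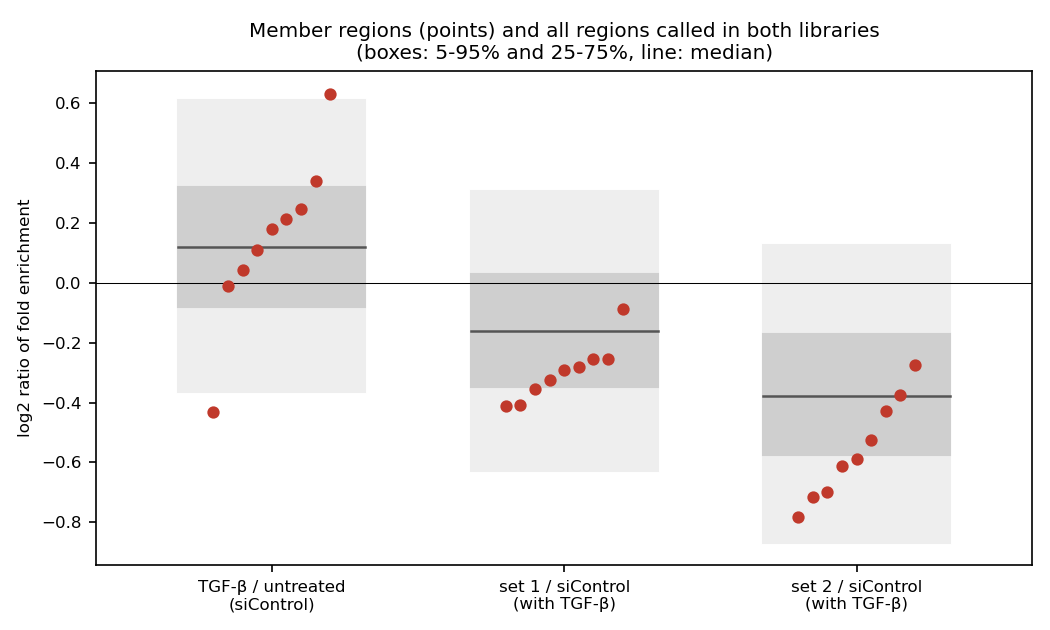
Log2 ratio of fold enrichment (y axis) for the 3 comparisons (x axis); each red point is 1 of the 9 member regions called in both libraries, and the boxes and line show the 5 to 95% and 25 to 75% ranges and the median of all such regions. The members lie around a median of 0.18 for TGF-β and of -0.29 and -0.59 for set 1 and set 2, all of them below 0 in the siRNA comparisons, and 1 point for TGF-β lies outside the box on either side.

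Read library by library, siControl + TGF-β had the highest fold enrichment at all 7 regions called in every library, and set 2 had the lowest at 5 of them, the Snai1 promoter, Zeb1 148.7 kb, Twist2 15.3 kb, Foxc2 -7.8 kb and Foxc2 -2.7 kb. At Zeb2 97.6 kb and Prrx1 the lowest value was that of set 1. Both Snai2 regions had their highest fold enrichment in untreated cells and were not called in siControl + TGF-β. These orders rest on 1 library each and on summits of 15 to 43 fragments at the shared regions. The median fold enrichment over all peaks was likewise highest in siControl + TGF-β, at 8.44, and lowest with set 2, at 7.15. How many of all regions called in every library have this order was not computed, so it is no result about the members.

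**Figure D4:**
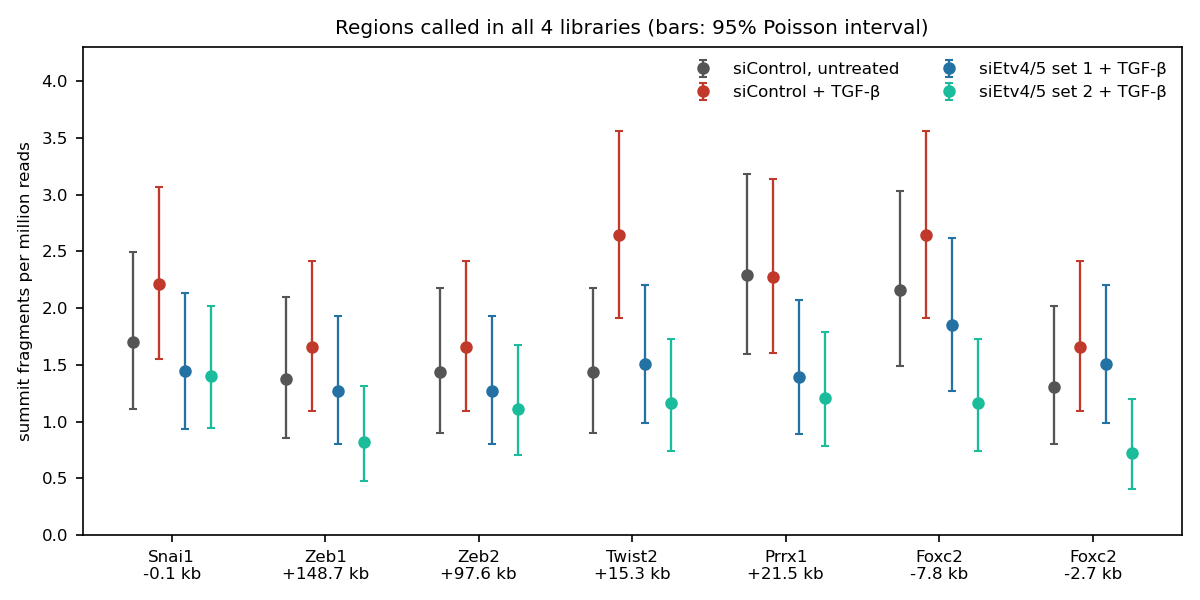
Summit fragments scaled to estimated depth, as FPM (y axis), for the 7 regions called in all 4 libraries (x axis), with 95% Poisson intervals as bars. At Twist2 15.3 kb and Foxc2 -7.8 kb siControl + TGF-β, at 2.64, lies above set 2, at 1.16, with separate intervals, and at the others the intervals of the 4 libraries overlap.

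The sequences around the summits were then compared, since the choice of loci did not use them. Of the 16 regions 8 lay within 2 kb of a TSS of any gene and 8 farther away. Over the whole data set 11749 of 35789 regions outside the mitochondrial genome lay within that distance, a smaller share. The GC content ran from 36.8% at Snai2 -4.3 kb to 72.6% at Snai1 -34.8 kb, with a median of 56.2% against 50.2% over all regions. The ratio of observed to expected CpG had a median of 0.564 against 0.282. Within 2 kb of a TSS these medians were 62.2% and 0.758 for the members, against 59.7% and 0.716 over all regions. Farther away they were 48.0% and 0.212, against 47.3% and 0.209. Within either class the members were thus close to all regions. All 3 regions of the Snai1 window and Foxc2 -7.8 kb had the highest ratios, 0.884 to 1.024, above those of 90.7 to 96.2% of all regions, and each of them lies at a gene start. The 5 intronic regions of Zeb1, Zeb2, Twist2 and Prrx1 were all poor in CpG, at 0.136 to 0.237. The median was 0.209 over all regions farther than 2 kb from a TSS. The lowest of the 5, Twist2 22.2 kb, is not among those, as it lies 1.16 kb from a TSS of the gene Gm29101. The median of all regions within 2 kb of a TSS was 0.716.

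**Figure D5:**
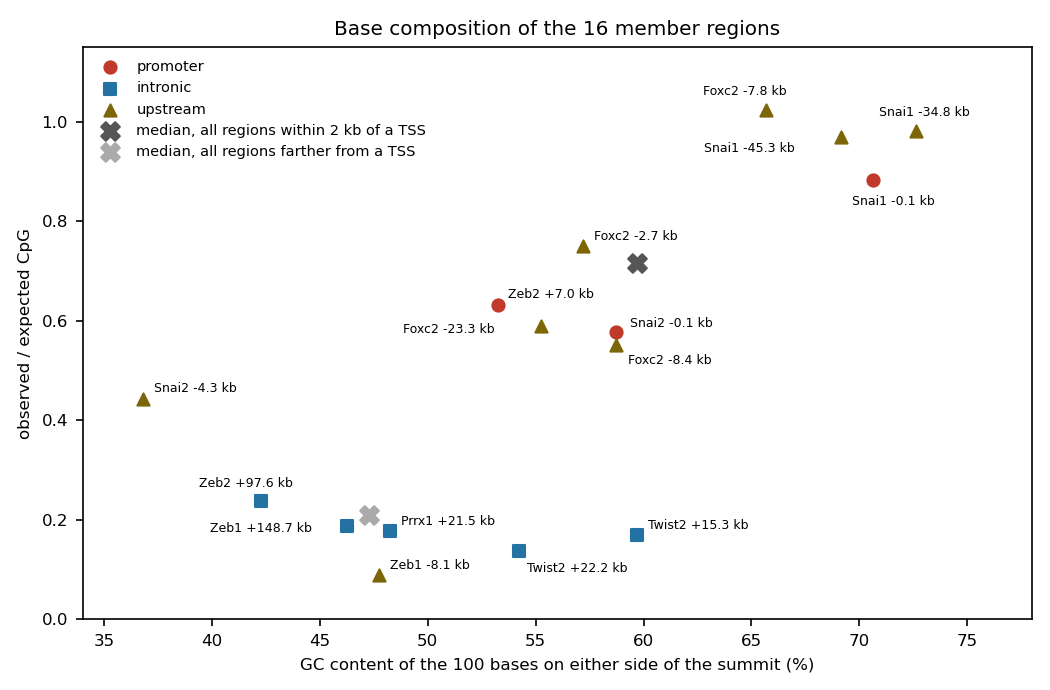
GC content in percent (x axis) and ratio of observed to expected CpG (y axis) over 100 bases on either side of each summit, with the medians of all regions near to and far from a TSS as crosses. The Snai1 regions and Foxc2 -7.8 kb sit at the upper right, the intronic regions lie at or below 0.237, and Snai2 -4.3 kb stands at the lowest GC content, 36.8%.

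An AP-1 word was found in 7 of the 16 windows, against 32.2% of all regions and 41.8% of those farther than 2 kb from a TSS. It was present in 4 of the 5 intronic windows, those of Zeb2 97.6 kb, both Twist2 regions and Prrx1, with the centre of the match 14, 16, 55 and 45 bp from the summit, and absent from that of Zeb1 148.7 kb. The Zeb2 promoter region held 2 AP-1 words, 4 and 53 bp from the summit. Among the 32851 RefSeq promoters (GRCm38.p6, a window over each gene start), 5.20% hold an AP-1 word, and of the 8 promoters listed there for 5 of the members, that of the internal Zeb2 start was the only one to hold any. Foxc2 -8.4 kb and Zeb1 -8.1 kb, both called in siControl + TGF-β alone, also held an AP-1 word, 2 and 41 bp from the summit. None of the 3 Snai1 and 2 Snai2 windows held one.

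The ETS words, of the family that includes Etv4 and Etv5, were found in 1 of the 16 windows, against 17.6% of all regions. The window was Snai1 -45.3 kb, at the Spata2 start, with 2 matches 5 and 20 bp from the summit. It was one of the 4 regions called in neither siRNA library, a share that was not computed over all regions. The other three, the Snai2 promoter, Zeb1 -8.1 kb and Foxc2 -8.4 kb, held no ETS word. A link between ETS words and missing calls was not tested. A missing word says only that these letters are not in the window. The E2-box was in 5 windows, against 13.6% of all regions: those of the Snai1 and Snai2 promoter regions, Zeb1 -8.1 kb, Foxc2 -8.4 kb and Foxc2 -7.8 kb. In the Snai2 window the match lies 82.5 bp from the summit, past the TSS and outside both the called region and the bases printed above. RUNX words were in 2 windows, Zeb1 148.7 kb and Zeb2 97.6 kb, against 20.0%, and TEAD words in 2, both at Zeb2, against 17.0%. No window consisted of repeats by more than 50%.

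The wider set of factors gives the setting for these loci. Of 12 further genes for EMT-inducing factors, treated in the same way, 10, 9, 10 and 7 held a region in the order untreated, siControl + TGF-β, set 1 and set 2. Over all protein-coding genes the shares were 65.2, 68.3, 64.2 and 55.2%. The 12 loci held 20, 21, 24 and 13 regions in all. Their windows differ in length, and that of Tcf4 spans 396 kb, against a median of 67.4 kb over all protein-coding genes. Promoters of the 12 were called at 6, 6, 6 and 2 genes, against the same 36, 38, 34.1 and 27.2% of all protein-coding genes. Prrx2, a homeobox relative of Prrx1, held 4, 5, 4 and 5 regions and no promoter region, and Tcf4, which encodes a basic helix-loop-helix partner of the Twist proteins, held 3, 4, 6 and 2. Snai3, the third gene of the Snai family, had a promoter region in all 4 libraries, as Snai1 did.

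Genes that oppose these factors in epithelial cells were treated likewise. The 9 genes were Grhl2, Ovol1, Ovol2, Elf3 and the 5 microRNA genes of the miR-200 family, which target Zeb1 and Zeb2. They held 18, 20, 13 and 10 distinct regions in the same order. The promoter was called at 4, 3, 1 and 1 genes, all of them protein-coding, and at none of the 5 microRNA genes. The promoter shares just given for all protein-coding genes compare with Grhl2, Ovol1, Ovol2 and Elf3 only. Grhl2, which encodes a factor that maintains epithelial genes, held 6, 8, 5 and 3 regions, and its promoter region was present in both control siRNA libraries and in neither siEtv4/5 library. Ovol1 held 4, 5, 3 and 3 regions with the same pattern at its promoter. The promoter of Ovol2 was called in untreated cells alone. How many of all promoters show the pattern of Grhl2 and Ovol1 was not computed, so it is no result about these genes. Called promoters were also fewer over all protein-coding genes in the siEtv4/5 libraries. Elf3, an epithelial ETS gene, held 3 regions and a called promoter in every library.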

How the data were processed

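FAIRE-seq libraries from 4 groups of EpRas cells, grouped by the sample labels, were available as 1 peak list each. The study describes biological replicates, and whether reads were pooled before calling is not given in the sources used here. Ion Proton reads had been cut to 1 length by the authors and aligned to mm10 using bowtie2, and MACS2 (2.1.0 in the submitters' processing notes) had called peaks with a q-value limit of 0.0001. The fold enrichment in the deposited lists is the ratio of pileup to background that MACS2 writes. Beside it the authors deposited each summit's position, its -log10 q-value and -log10 p-value, and an integer score, which is 10 times the former.

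Fragments at each summit and the local background were solved from the fold enrichment, taken as both values plus a pseudocount of 1, and the Poisson p-value. A whole number of fragments gave the deposited -log10 p-value within 0.001 in 100% of peaks. Backgrounds above the floor, outside the mitochondrial genome, corresponded to whole numbers of reads in 10 kb, within 0.05. Depth was estimated from the floor, the shortest peak width and the MACS2 default for the size of the mouse genome, so it is relative, and FPM is fragments per M of these reads. The step was tested on simulated data.

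Peaks overlapping by at least 1 bp were merged, and the strongest peak per library was kept. TSSs came from the GENCODE basic annotation M21. No test was run, since each group has 1 library, and intervals are exact 95% Poisson intervals. A change of 1.5-fold in fold enrichment was counted, and the same count by FPM was added after seeing the data. Alternatives were a q-value limit of 1e-06, lists of 14925 peaks, 20 or 100 kb upstream, merging within 200 bp, a promoter distance of 1 kb, and FPM in place of fold enrichment. All 8 members are named. Promoter regions, regions called in all 4 libraries and the strongest region per locus are given in full. The members, lists, motifs and the Snai2 promoter sequence were chosen with earlier results of these data known. Python 3.11.15, pandas 2.3.3 and scipy 1.17.1 were used. RefSeq promoters matched 5 of the 8 members by symbol.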

Additional observations from a re-analysis of the deposited data

How the results depend on the processing

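Of 56 recomputed values, 50 stayed the same and none reversed. Some of these could not change. The q-value limit of 1e-06 (13 values) removed no member peak, since the weakest has a -log10 q-value of 6.94. The promoter distance of 1 kb (4 values) removed no promoter region, since they lie 52 to 121 bp from a TSS. A count was the same within 1.5 times of the reported one. A median was the same if it kept its direction and moved by less than the counting error (1 SD) of the median region. With lists of equal length (14925 peaks), the regions called in siControl + TGF-β and not in untreated cells fell from 5 to 1, and those called in siControl + TGF-β and not with set 2 from 5 to 1, where 25.6% and 25.1% of all regions were so called. The 4 libraries then held 11, 10, 7 and 10 regions in place of 11, 14, 10 and 10. This setting keeps only the most significant peaks of the longer lists. With 20 kb in place of 50 kb upstream, the regions called in siControl + TGF-β and not with set 1, and those not with set 2, were 3 each in place of 5, since fewer regions were then in the windows. With 100 kb upstream, the 4 libraries held 15, 20, 15 and 12 regions. By FPM in place of fold enrichment the medians were 0.27, -0.51 and -0.91 on the log2 scale for TGF-β, set 1 and set 2, in the direction of those reported. The regions at least 1.5-fold lower were then 4 in place of 0 with set 1 and 8 in place of 5 with set 2, a count by FPM that was chosen after seeing the data. No paired analysis was possible because each group has 1 library. Depth limits the reading of a missing call, as the weakest summits called at the background floor held 10 to 12 fragments, and each order among libraries rests on counts of 14 to 43 fragments.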
